A study of Mus musculus with 24 samples.

Results

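The glutathione S-transferase genes Gsta2, Gm10639, Gsta3, Gsta4, Gstm1, Gstm3, Gstp1 and Gsto1 and the quinone reductase gene Nqo1 were examined in mouse colon. They were taken as the probes whose transcript accession belonged to one of these symbols, which gave 9 of 45616 genes and 12 of 56605 probes on the array. Gsta3, Gstm1 and Gsto1 had 2 probes each and the other 6 genes had 1. The genes were picked with their values in these arrays already known, those of intact females included. Gsta2 and Gm10639 had been called lower on the high-fat diet in both males and ovariectomized females. The diet values are therefore given as a description, with no p-value for a single gene. Where a gene of the 9 is said to be called in a diet comparison, the word records only that it lay past the limits given below.

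The arrays held colon RNA of 24 C57BL/6J mice, 4 in each of 6 groups. Males (M) and intact females (F), which had sham surgery, and ovariectomized females (F(OVX)) were bought at 7 weeks of age and kept for 14 weeks on chow that drew 10% (LFD, low fat) or 45% (HFD, high fat) of its kcal from fat. Every mouse, on either diet, also received the colon carcinogen azoxymethane (AOM, 10 mg/kg) and 3 cycles of 1.5% dextran sulfate sodium (DSS), an irritant of the colon lining, and was killed 75 days after AOM. No group without AOM and DSS was analysed here, so the values compare diets, sexes and surgery within tumor-induced colons. The methods name 5 animals per group for the arrays whereas the labels give 4, and the animals were those closest to their group's average body weight.

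Glutathione S-transferases join glutathione, a small peptide, to reactive electrophiles so that these can be exported from the cell. They are grouped into classes by sequence, of which alpha (Gsta), mu (Gstm), pi (Gstp) and omega (Gsto) are represented here. Nqo1 reduces quinones in a single step that avoids reactive intermediates. Many of these genes are induced by Nrf2 (encoded by Nfe2l2), a transcription factor that Keap1 marks for degradation until electrophiles modify Keap1, and that binds antioxidant response elements near its targets. In the gut, these enzymes are made mainly by epithelial cells, which meet dietary and microbial electrophiles.

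Gsta2 and Gm10639, a predicted gene model near Gsta2 on chromosome 9, are shown by their promoters because their signals ran together on the arrays. Each window covers 250 bases before to 50 bases after the transcription start (RefSeq, GRCm38.p6), at chr9:78347096-78347395 on the minus strand for Gsta2 and chr9:78289678-78289977 on the plus strand for Gm10639. The capitals mark the longest run that both windows share, of 24 bases.
Gsta2: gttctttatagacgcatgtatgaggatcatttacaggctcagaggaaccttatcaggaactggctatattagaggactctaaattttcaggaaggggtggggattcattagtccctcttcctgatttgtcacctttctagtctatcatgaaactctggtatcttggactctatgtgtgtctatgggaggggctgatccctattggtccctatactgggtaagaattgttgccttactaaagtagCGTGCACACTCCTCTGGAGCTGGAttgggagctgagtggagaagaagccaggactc
Gm10639: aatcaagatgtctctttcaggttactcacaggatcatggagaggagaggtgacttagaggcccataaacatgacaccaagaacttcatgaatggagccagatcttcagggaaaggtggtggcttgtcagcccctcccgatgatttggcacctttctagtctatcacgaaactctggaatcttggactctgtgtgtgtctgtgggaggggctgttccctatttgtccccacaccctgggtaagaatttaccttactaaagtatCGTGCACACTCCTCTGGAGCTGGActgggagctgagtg
In a global alignment, these 2 windows were identical at 218 of 322 positions (67.7%), against 51.8% for the next most alike pair among the 8 genes that had a window, Gm10639 and Gsta3. Of the 9 genes, 8 had a promoter window, Gsta4 being the exception. The antioxidant response element core TGACNNNGC, searched on both strands, was present in 12.4% of all 32851 promoter windows and, among these genes, in Gsta3. The AP-1 site TGAGTCA was present in 5.20% of all windows and, among these genes, in Gstp1. The xenobiotic response element core GCGTG was present in 32.4% of all windows and in those of Gsta2, Gstm1 and Gstp1. These letters were a description of the windows and were not tied to any measurement. The sequences of the array probes were not used here, so how far the Gsta2 probe also captures Gm10639 or other Gsta transcripts, or the Gstp1 probe the closely related Gstp2, was not tested. No probe matched Gsta1.

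All signals below are log2 of the background-subtracted probe intensity after quantile normalization over the 24 arrays, and the brighter probe stands for a gene with 2. A level of one probe was never set against that of another probe. Of all probes, 37.4% were well above background on all 24 arrays, and all 12 probes of these genes were among them. A single array had 40.5% to 61.9% of its probes above background, and arrays of a group correlated at 0.951 to 0.990. The 10 epithelial markers were all detected, with a summed signal of 18.22 to 18.89 on every array. Males, intact females and ovariectomized females each lay on a slide of their own, with LFD in the upper and HFD in the lower row of every slide, so that diet and row, and sex or surgery and slide, cannot be told apart. The labels do not say that replicates were handled separately beyond being different samples, and spread between them may be partly technical.

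Replicates 1 and 2 of M + LFD stood apart from the other arrays. Hoxb13, a Hox gene of the hind end of the gut, was not well above background on replicate 1 (2.18), had a signal of 5.04 on replicate 2 and of 12.58 to 14.79 on the other 22. Hoxb6, a Hox gene of more anterior segments, had 12.71 and 11.20 on them and 4.47 to 8.35 on the others. Because these arrays belong to a group that every diet comparison in males rests on, the male values of the genes that were called or named are also given without them.

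**Figure D1:**
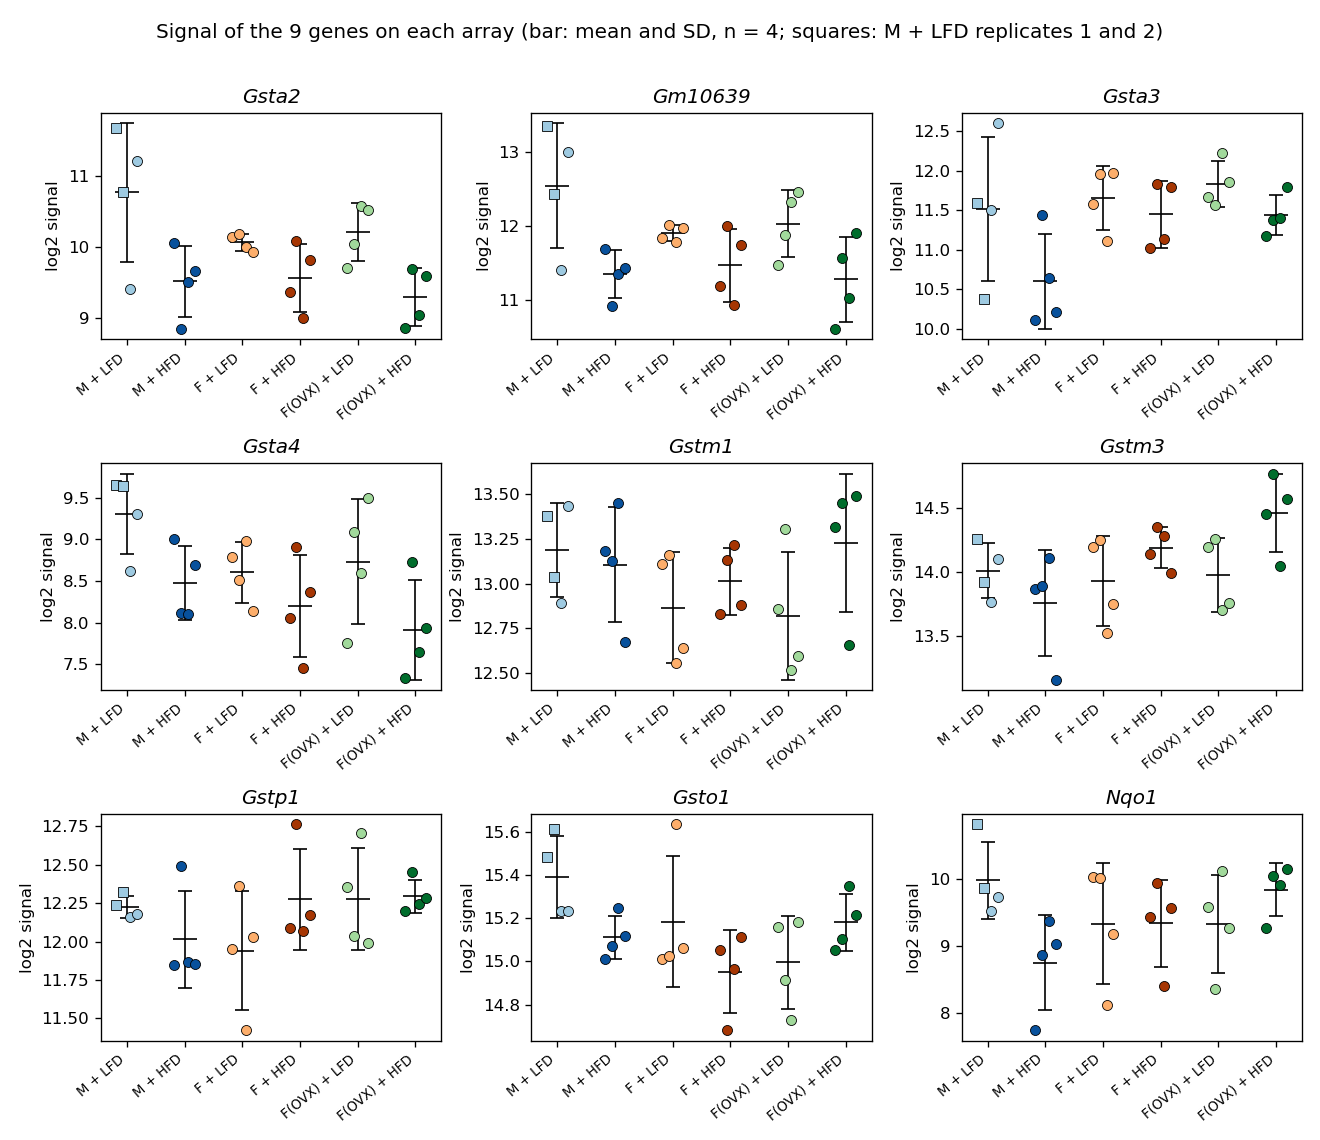
Log2 signal (vertical axis) of each of the 9 genes on the 24 arrays, grouped by sex or surgery and diet (horizontal axis). Points are arrays, bars are mean and SD (n = 4), and squares are M + LFD replicates 1 and 2. Gsta2 lay between 8.84 and 10.05 in M + HFD and between 9.41 and 11.67 in M + LFD, and Nqo1 ranged from 7.74 to 10.82 over all arrays.

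In males, all 9 genes had a lower mean on HFD than on LFD, and Gsta2, Gm10639, Gsta4 and Nqo1 were called lower. A gene was called at a difference of 1.5-fold or more together with a limma p below 0.05 before adjustment, the limits of the study, which applied them to the test named in its methods instead of limma. By that test, Gsta2 was not called in males, nor was Gm10639 in ovariectomized females. By that rule, 4.30% of the 20516 genes tested in males were called and 1.80% were called lower, against 4 of these 9 genes, and no gene of the 20516 passed an adjusted p of 0.05. The count of 4 describes the choice of the genes and supports nothing on its own. The median difference over the 9 genes was -0.83 on the log2 scale, beside 0.01 over all genes tested.

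Gsta2, whose product conjugates electrophiles and reduces lipid peroxides, had signals of 11.67, 10.77, 9.41 and 11.21 in replicates 1 to 4 of M + LFD. In M + HFD it had 10.05, 8.84, 9.51 and 9.65. The other 3 M + LFD arrays lay above all of M + HFD, whereas replicate 3 lay below 3 of them, so the groups overlapped. The difference was -1.25 (SE 0.47), or 2.38-fold lower on HFD. Gm10639 had 13.34, 12.43, 11.40 and 12.99 in M + LFD and 11.69, 10.92, 11.34 and 11.43 in M + HFD, again with replicate 3 of M + LFD inside the HFD range. Its difference was -1.20 (SE 0.40), or 2.29-fold lower.

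Gsta4, which acts on 4-hydroxynonenal, a product of lipid peroxidation, had 9.66, 9.64, 8.62 and 9.31 in M + LFD and 9.004, 8.11, 8.11 and 8.69 in M + HFD. Replicate 3 of M + LFD was once more the array that fell among the HFD values. The difference was -0.83 (SE 0.30), or 1.77-fold lower, which placed Gsta4 just inside the call. Gsta3 had a larger difference of -0.92 (SE 0.47) but lay just outside it. Its signals were 11.59, 10.38, 11.50 and 12.61 in M + LFD and 10.11, 11.44, 10.64 and 10.21 in M + HFD. The low value of replicate 2 in M + LFD and the high value of replicate 2 in M + HFD crossed the groups.

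Nqo1 had 10.82, 9.86, 9.52 and 9.73 in M + LFD and 7.74, 8.87, 9.37 and 9.03 in M + HFD. It was the only one of the 9 genes whose male groups did not overlap, which was the case downwards for 0.911% of all genes tested. The difference was -1.23 (SE 0.40), or 2.35-fold lower on HFD. The remaining genes differed little in males, by -0.08 for Gstm1, -0.26 for Gstm3, -0.21 for Gstp1 and -0.28 for Gsto1, with SEs of 0.14 to 0.23.

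Without replicates 1 and 2 of M + LFD, all 9 genes kept a lower mean on HFD, but the calls moved to other genes. The difference was -0.79 for Gsta2, -0.85 for Gm10639, -0.48 for Gsta4 and -0.87 for Nqo1, none of them called, whereas Gsta3 was called at -1.45. When single arrays were left out in turn, Gm10639 and Nqo1 stayed called in 8 of 8 settings. Gsta2 lost its call without replicate 1, 2 or 4 of M + LFD (-0.95, -1.25 and -1.10) and without replicate 2 or 3 of M + HFD (-1.03 and -1.25). Gsta4 lost it without replicate 1 or 2 of M + LFD or replicate 2 or 3 of M + HFD, at -0.70 to -0.72. Gsta3 became called without replicate 2 of M + LFD (-1.30) or of M + HFD (-1.20).

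In intact females, none of the 9 genes was called, beside 1.20% of 22085 genes, and none had an unadjusted limma p under 0.05, beside 2.91% of all genes. The results of this comparison were also known when the genes were picked, so these counts are a description. Gsta2 had 10.14, 10.18, 10.0003 and 9.93 in F + LFD, the tightest of its 6 groups (SD 0.12), and 9.36, 10.08, 8.998 and 9.82 in F + HFD. Only replicate 2 of F + HFD reached the LFD range. The difference was -0.50 (SE 0.23) for Gsta2 and -0.44 (SE 0.24) for Gm10639. Same-numbered F arrays came from different mice and shared only a column of the slide. They were taken as pairs because their deviations correlated at 0.26 to 0.58, with no differently numbered arrays set beside them. The pairs were thus chosen on these data, and the counts by pair are a description. Within these, Gsta2 was lower on HFD in 4 of 4, by -1.0018 to -0.10, and Gm10639 in 4 of 4, by -0.85 to -0.01. Gstp1 was higher in 4 of 4 pairs, by 0.14 to 0.65. Of the others, Gsta3 was lower in 3 pairs, Gstm3 in 1, and Gsta4, Gstm1, Gsto1 and Nqo1 in 2 each. Gsta2 and Gm10639 ran together, and the share of all genes with 4 pairs of the same sign was not counted. None of the 9 genes was called with the pairs as a block either. Without replicate 2 of F + HFD, Gsta2 and Gm10639 were called, at -0.67 and -0.61.

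The other genes of intact females lay on either side of zero. Gsta4 differed by -0.41 (SE 0.32) and Gsta3 by -0.21 (SE 0.27). Gsto1 differed by -0.23 (SE 0.18), a direction that turned to 0.09 when arrays were scaled to their 75th percentile instead. Gstm1, Gstm3 and Gstp1 had higher means on HFD, by 0.15, 0.26 and 0.33. Nqo1 had the same mean on either diet (9.34 on HFD and 9.33 on LFD), over a wide spread of 8.11 to 10.03 on LFD and 8.41 to 9.94 on HFD.

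In ovariectomized females, Gsta2 and Gm10639 were called lower on HFD and the mu-class genes and Nqo1 had higher means. Of the 19211 genes tested there, 2.19% were called and 1.02% were called lower, and none passed an adjusted p of 0.05. Gsta2 had 9.70, 10.04, 10.58 and 10.51 in F(OVX) + LFD and 8.86, 9.69, 9.04 and 9.59 in F(OVX) + HFD. These groups did not overlap, although the highest HFD value and the lowest LFD value were nearly equal, and 0.812% of all genes tested were separated downwards. The difference was -0.91 (SE 0.26), or 1.88-fold lower, and stayed called in 8 of 8 settings that left out 1 array.

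Gm10639 had 11.47, 11.87, 12.32 and 12.45 in F(OVX) + LFD and 10.60, 11.57, 11.02 and 11.90 in F(OVX) + HFD. The groups overlapped, and the difference of -0.75 (SE 0.32) lay just inside the call. It was lost without replicate 2, 3 or 4 of F(OVX) + LFD (-0.81, -0.66 and -0.61) and without replicate 1 or 3 of F(OVX) + HFD (-0.53 and -0.67). Gsta4 lay just outside at -0.82 (SE 0.41), with 7.75, 9.09, 8.59 and 9.49 on LFD and 7.34, 8.73, 7.65 and 7.93 on HFD. Replicate 1 was the lowest array of either diet. Gsta4 became called without replicate 1 of F(OVX) + LFD (-1.15) or replicate 2 of F(OVX) + HFD (-1.10), and in 1 fit of all 24 arrays, whereas with the posterior Hox covariate described below its difference was -0.29. Gsta3 differed by -0.39 (SE 0.20).

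Gstm1 and Gstm3, which encode mu-class enzymes, differed by 0.41 (SE 0.24) and 0.49 (SE 0.21) in ovariectomized females, and neither was called. Both would have been called higher without replicate 3 of F(OVX) + HFD, at 0.60 and 0.62. Nqo1 differed by 0.51 (SE 0.36), with 9.58, 8.36, 10.12 and 9.27 on LFD and 9.27, 10.05, 9.91 and 10.15 on HFD. The groups overlapped. Without replicate 3 of F(OVX) + LFD, Nqo1 was called higher, at 0.77. Gstp1 and Gsto1 differed by 0.02 and 0.18. Smooth muscle markers moved with diet in the same arrays: 4 of the 7 tested were called higher on HFD, beside 1.18% of all genes, and their summed signal was 15.37 to 16.58 on LFD and 16.48 to 17.61 on HFD. In intact females, 7 of 7 smooth muscle markers tested also had higher means on HFD, with 0 called and a median difference of 0.49. In males 3 of them had higher and 4 lower means. Other lists moved in ovariectomized females too. Of the absorptive colonocyte markers, 9 of 9 had higher means on HFD with 1 called, and of the small intestinal markers 2 of 4 tested were called higher, with a summed signal of 11.16 to 14.35 on LFD and 13.73 to 15.43 on HFD. Of the epithelial markers 9 of 10 had higher means with none called, and of the immune markers 9 of 9 had lower means with none called. The part of these markers in the results was not tested. In bulk tissue, a change in the number of cells and a change in RNA per cell cannot be told apart.

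**Figure D2:**
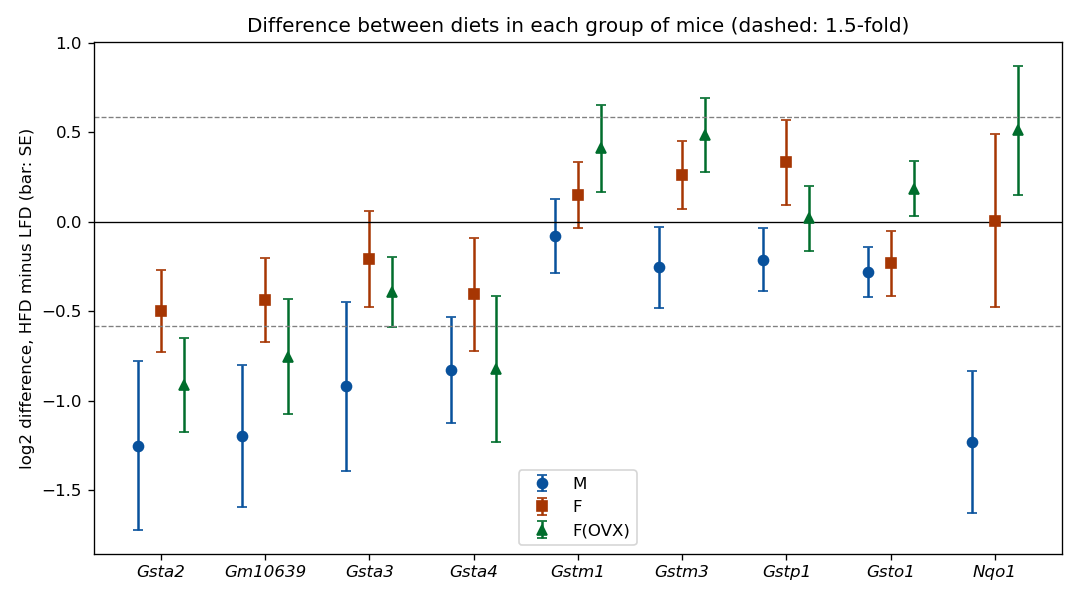
Log2 difference between HFD and LFD (vertical axis, bars are SE, 4 arrays a group) for the 9 genes (horizontal axis) in males, intact females and ovariectomized females. Dashed lines mark 1.5-fold. The 4 alpha-class genes lie below zero in all 3 comparisons, whereas Nqo1 is at -1.23 in males, 0.01 in intact females and 0.51 in ovariectomized females.

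The 4 alpha-class genes were lower on HFD in each of the 3 comparisons, which held for 11.5% of the 18932 genes tested in all 3. Gsta2 and Gm10639 were known to be lower in males and ovariectomized females when the genes were picked, so the count supports nothing on its own. Gsta2 also ran with Gm10639 (r = 0.98) and Gsta4 (r = 0.84) over the arrays, so these are not 4 separate counts. None of the other 5 genes was lower in all 3. In limma contrasts of one diet effect with another, none of the 22383 genes tested, and so none of the 9, passed an adjusted p of 0.05. The largest such value among the 9 genes was -1.74 (SE 0.65), for Nqo1 in males minus ovariectomized females. These contrasts rest on the male and ovariectomized arrays behind the choice of genes, so no p-value is given for single genes.

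Across sex and surgery at a fixed diet, none of the 9 genes passed an adjusted p of 0.05 by limma in any of 4 comparisons. The share of all genes that did was 0 for F(OVX) against F on LFD and on HFD, 0.299% for M against F on LFD and 0.273% on HFD. The largest differences were 0.70 (SE 0.37) for Gsta2 in M against F on LFD and -0.85 (SE 0.36) for Gsta3 in M against F on HFD. The first includes replicates 1 and 2 of M + LFD, with Gsta2 at 11.67 and 10.77. Replicates 3 and 4 had 9.41 and 11.21, beside 9.93 to 10.18 in F + LFD. The size of that difference without replicates 1 and 2 is not given here. All 4 comparisons rest on arrays whose values were known when the genes were picked. They are a description, and no p-value is given for single genes. Ovariectomized and intact females on LFD differed by 0.33 or less in every one of the 9 genes.

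The order of the 6 group means differed between genes and was mostly narrower than the spread. For Gsta2, the means ran from 10.76 ± 0.98 (SD) in M + LFD over 10.21 ± 0.41 in F(OVX) + LFD, 10.06 ± 0.12 in F + LFD, 9.56 ± 0.48 in F + HFD and 9.51 ± 0.50 in M + HFD to 9.29 ± 0.41 in F(OVX) + HFD. The 3 LFD groups came first, and the step from F + LFD to F + HFD was the only one larger than the SDs of both neighbours. Gsta3 had its highest mean in F(OVX) + LFD (11.83 ± 0.29) and its lowest in M + HFD (10.60 ± 0.61). The step from the next lowest group, F(OVX) + HFD (11.44 ± 0.26), to M + HFD was likewise larger than either SD. Nqo1 was highest in M + LFD (9.98 ± 0.58), followed by F(OVX) + HFD (9.85 ± 0.40), and lowest in M + HFD (8.75 ± 0.71), with no step beyond the SDs. The mean of M + LFD included replicate 1 at 10.82. By the median, M + LFD (9.80) lay below F(OVX) + HFD (9.98) for Nqo1. The means of Gstm1, Gstp1 and Gsto1 spanned only 0.41, 0.35 and 0.44 over the 6 groups, against 1.47 for Gsta2 and 1.23 for Nqo1.

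Gsta2 and Gm10639 followed each other closely from array to array. Pearson's r was 0.98 and Spearman's rho 0.94 over the 24 arrays, and r was 0.96 for deviations from the group means. These arrays share slides and normalization, and probes for related transcripts may share target, so this is a description. Gsta2 correlated with Gsta4 at r = 0.84 and with Gsta3 at r = 0.29, which was 0.14 within groups and 0.49 without replicates 1 and 2 of M + LFD. Gstm1 and Gstm3 correlated at 0.74, and at 0.92 within groups. The 2 probes of Gsta3 correlated at 0.98, those of Gstm1 at 0.89 and those of Gsto1 at 0.81. Both probes of each of these genes gave a diet difference of the same sign in every comparison.

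Among 11870 genes detected on all arrays, the course of Gsta2 was most like that of Mboat2 (r = 0.74), Ces1g (0.72), Tlr2 (0.71), AA986860 (0.70) and Prr15l (0.70). Without replicates 1 and 2 of M + LFD these values were 0.48 to 0.66. Nqo1 was most like Mpp6 (r = 0.89), Apol10a (0.88), Pcsk5 (0.88), Snrpn (0.87) and Pir (0.87), at 0.84 to 0.88 without the same 2 arrays.

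The 9 genes were also set beside the Hox genes of the hind gut. The mean signal of 9 posterior Hox genes was 3.96 to 8.59 over the arrays. It is a rough measure, since 2 of the 9 (Hoxa10 and Hoxa11) were well above background on all 24 arrays, Hoxb13 and Hoxa13 on 23, Hoxd13 on 17, Hoxd10 on 8, Hoxd12 on 6, Hoxd11 on 4 and Hoxc10 on 1. In 4 of the 6 groups, the array with the highest posterior Hox mean had the lowest Nqo1. This was the highest such count among the 9 genes. It was not made over all genes, so it cannot be said to be particular to Nqo1. Replicate 1 of M + HFD had a Hox mean of 8.59 and Nqo1 at 7.74, against 8.87 to 9.37 on the other 3 arrays of its group. Replicate 3 of F + LFD had 8.55 and Nqo1 at 8.11, against 9.17 to 10.03. Replicate 3 of F + HFD had 8.57 and Nqo1 at 8.41, against 9.44 to 9.94. Replicate 2 of F(OVX) + LFD had 8.09 and Nqo1 at 8.36, against 9.27 to 10.12. In the other 2 groups the array with the highest Hox mean did not stand out by that mean (6.59 in M + LFD and 6.49 in F(OVX) + HFD), and its Nqo1 was 9.73, the second lowest, and 10.15, the highest. Replicate 4 of F(OVX) + LFD, with a Hox mean of 7.93, had Nqo1 at 9.27. At the other end, replicate 1 of M + LFD had the lowest Hox mean, 3.96, and the highest Nqo1, 10.82.

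With the posterior Hox mean as a covariate, the male diet difference of Nqo1 was -0.34 instead of -1.23, while that of Gsta2 was -1.11, that of Gm10639 -1.04 and that of Gsta4 -0.89, and none was called. In ovariectomized females, the covariate left Gsta2 called at -0.83 and brought Nqo1 from 0.51 to 0.02. The array with the highest Hox mean had the lowest signal in 3 of 6 groups for Gsta3 and Gstp1, in 2 for Gm10639 and in 1 for each of the other 5 genes, Gsta2 among them. Because the Hox mean itself differed between male diets, their parts in the male values cannot be told apart.

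**Figure D3:**
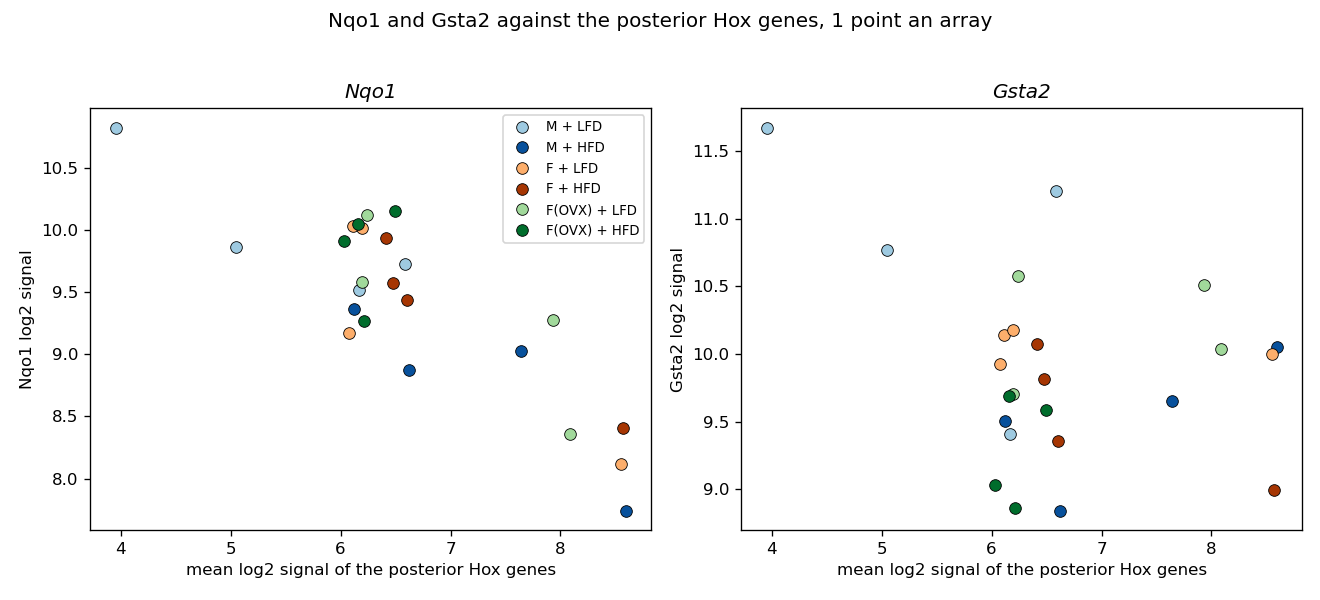
Log2 signal of Nqo1 (left) and Gsta2 (right) against the mean log2 signal of the posterior Hox genes (horizontal axis), 1 point an array, coloured by group. The 4 arrays with a Hox mean of 8.09 or more have Nqo1 signals of 7.74 to 8.41, below all other arrays. Their Gsta2 signals of 8.998 to 10.05 lie among the others. The limit of 8.09 was not fixed in advance, and the array with the next highest Hox mean, 7.93, has Nqo1 at 9.27.

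Other genes of the same pathway were counted from lists. Of 27 Nrf2 targets outside the 9 genes, 24 were tested in males, where 19 had a lower and 5 a higher mean on HFD and the median difference was -0.34. Of these, 6 were called lower and none higher, beside 1.80% of all genes called lower. Me1, a source of NADPH, had 9.89 ± 0.92 in M + LFD and 8.23 ± 1.06 in M + HFD, a difference of -1.67. Cbr3, a carbonyl reductase, differed by -1.09. Gclc and Gclm, the catalytic and modifier subunits of the enzyme that limits glutathione synthesis, differed by -0.74 and -0.65. Taldo1 and Akr1b8, named after their values were seen, differed by -0.72 and -0.70. Without replicates 1 and 2 of M + LFD, a setting applied to these genes after the data were seen, the differences were -0.90 for Me1, -0.99 for Cbr3, -0.35 for Gclc, -0.36 for Gclm, -0.36 for Taldo1 and -0.56 for Akr1b8, and none was called. Hmox1, heme oxygenase, differed by 0.20 and was not called.

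The number of calls changed with single arrays. The count of Nrf2 targets called lower in males was 1 without replicate 1 of M + LFD, 2 without replicate 2, 3 without replicate 1 of M + HFD, 0 without both replicates 1 and 2 of M + LFD, and 1 with the posterior Hox covariate. It was 9 when all probes of a gene were averaged. In intact females, 0 of 26 tested targets were called, beside 1.20% of all genes, with a median of -0.03. In ovariectomized females it was 0 of 25, beside 2.19% of all genes, with a median of 0.07. Counts of 0 in lists this short lie near those shares. Me1 differed by -0.22 and -0.25 in intact and ovariectomized females, and Cbr3 by 0.00 and 0.31.

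**Figure D4:**
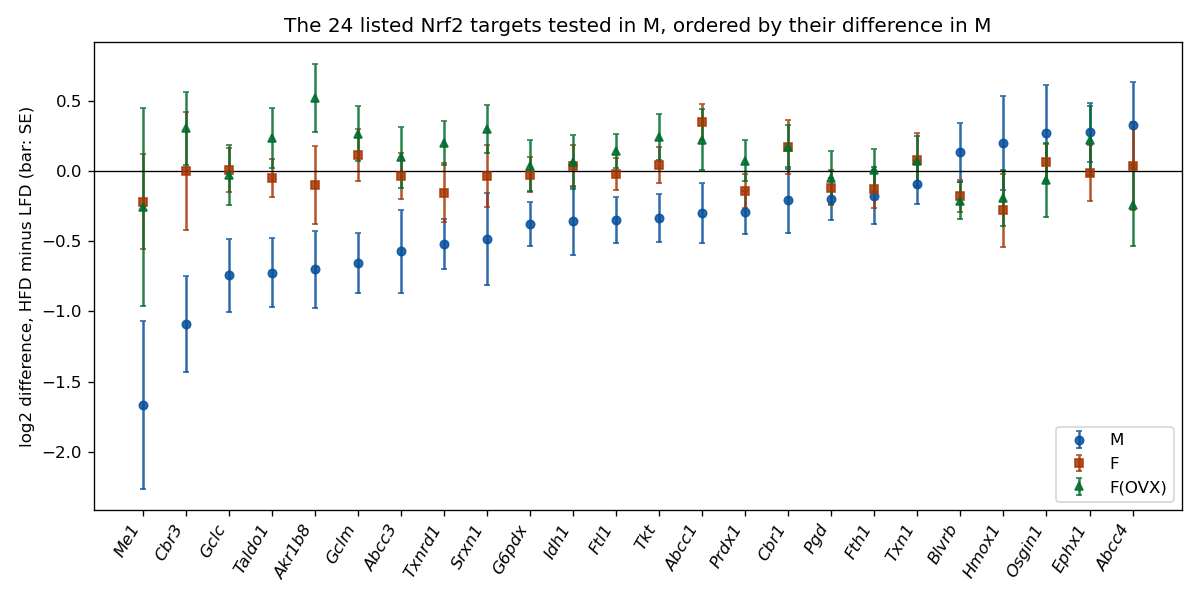
Log2 difference between HFD and LFD (vertical axis, bars are SE, 4 arrays a group) for the 24 listed Nrf2 targets tested in males (horizontal axis, ordered by their male difference), in males, intact females and ovariectomized females. Male values run from -1.67 for Me1 to 0.33 for Abcc4, and 19 of 24 lie below zero.

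Of the Nrf2 pathway's own regulators, Nfe2l2 differed by -0.17, -0.06 and 0.13 in males, intact females and ovariectomized females and was not called in any. Keap1 had 10.31 ± 0.13 in M + LFD and 9.76 ± 0.20 in M + HFD, but its difference of -0.54 missed 1.5-fold. Its male groups did not overlap, which was the case downwards for 0.911% of all genes tested. Those of the targets Gclc and Txnrd1 and of Gstp2, another glutathione S-transferase gene, did not overlap either. Maff, a small Maf protein that pairs with Nrf2, was the only one of the 8 regulators called, at 0.91 in males, where 4.30% of all genes were called. Without replicates 1 and 2 of M + LFD, Maff was called at 1.19, Keap1 differed by -0.57 and Nfe2l2 by 0.23. Of 16 other glutathione S-transferase genes tested in males, Gstk1 (-0.72) and Mgst1 (-0.65) were called lower, both named after their values were seen, beside 1.80% of all genes, and the median was 0.00. Without replicates 1 and 2 of M + LFD they differed by -0.28 and -0.49 and were not called. None of 18 was called in intact females and none of 16 in ovariectomized females, beside 1.20% and 2.19% of all genes. Of genes of glutathione synthesis and recycling, 0 of 16 were called in males and 0 of 16 in intact females, beside 4.30% and 1.20% of all genes. In ovariectomized females 1 of 15 was called, the peroxidase gene Gpx3, at -0.61, beside 1.02% of all genes called lower.

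Targets of other xenobiotic receptors were counted alongside. Of 4 genes tested from the list of the aryl hydrocarbon receptor, none was called in any diet comparison. The shares of all genes called were 4.30% in males, 1.20% in intact females and 2.19% in ovariectomized females. In the same order, Ahr itself differed by 0.26, -0.00 and -0.11. Of genes of the receptors PXR and CAR, 6 were tested in males. Cyp2c65 and Cyp2c55, cytochrome P450 genes of the gut, were called lower, by -3.98 (SE 1.42) and -3.38 (SE 1.36). All genes called lower in males made up 1.80%. Cyp2c65 had 14.73, 14.55, 10.81 and 9.30 in M + LFD and 7.15, 7.16, 11.31 and 7.86 in M + HFD, and Cyp2c55 had 15.41, 14.70, 9.29 and 11.11 and then 8.97, 9.08, 11.12 and 7.81. The high values were those of replicates 1 and 2 of M + LFD, and without them the differences were -1.69 and -0.95 and neither was called. In ovariectomized females, Cyp2c65 was called higher, by 1.77 (SE 0.77), and in intact females neither was called.

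Markers of other parts of the gut differed between the male groups beside these results. The summed signal of 8 small intestinal markers was 13.34 to 16.21 in M + LFD and 11.16 to 15.17 in M + HFD, and that of the absorptive colonocyte markers was 17.07 to 18.73 and 16.57 to 18.10. That of the posterior Hox genes was 9.32 to 14.0008 and 13.79 to 15.07. Of 9 colonocyte markers tested, 6 had lower and 3 higher means on HFD, and the 1 called, Slc26a3, was higher. Of 5 small intestinal markers tested, 4 had lower means and 1, Fabp2, was called lower. Of 5 posterior Hox genes tested, 4 had higher means and 1, Hoxd13, was called higher. Of all genes tested in males, 2.50% were called higher and 1.80% lower. The part of these markers in the male differences was not tested beyond the comparisons without the 2 arrays and with the Hox covariate.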

How the data were processed

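Per the labels and methods, RNA from distal colon was labelled with Cy3 and hybridized to Agilent 1-color mouse arrays, 1 array per mouse. The authors extracted the arrays with Agilent Feature Extraction 11.0.1.1, and the deposited values are spot intensities, background-subtracted within each array and not normalized between arrays. The deposited median intensities of spot and local background were used for a normexp alternative (offset 50). Spots marked as outliers were left out, log2 values were computed here from the deposited intensities, quantile-normalized over 24 arrays and averaged per probe. No spot was saturated. Accessions were matched to RefSeq symbols (58.3% of probes), and the brightest probe stood for a gene. Diet was compared within M, F and F(OVX) with limma 3.58.1 (R 4.3.3), for genes whose probe the scanner software marked well above background on each of the 4 arrays of at least 1 group. Sex and surgery contrasts and differences of diet effects came from 1 fit of 24 arrays, with Benjamini-Hochberg adjustment. The brightest-probe rule, the genes and the pathway and marker lists were chosen with earlier results of these data known. Genes were named if they were among the 9, if a pathway list held them and they were called (the 6 largest a comparison), or if they were the 5 most correlated with Gsta2 or Nqo1, and Nfe2l2, Keap1, Ahr, Hmox1, Gclc and Gclm were named in any case. Alternatives were another scaling and background correction, other filters, probes averaged, outlier spots kept, the replicate number as a block, a posterior Hox covariate, the methods' t-test, 1 fit of all arrays, and arrays left out. Replicate numbers equal the column on the slide. In F, the deviations of same-numbered LFD and HFD arrays, which came from different mice, correlated at 0.28, 0.45, 0.58 and 0.26. Those arrays were taken as pairs on these values alone, with no differently numbered arrays set beside them. The block gave the same count of 0 among the 9 genes. The number of arrays limits the precision. The script was tested on simulated data. Promoters were aligned with Biopython.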

Additional observations from a re-analysis of the deposited data

Results flagged for a closer look

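Of 72 sets of 4 arrays (12 probes in 6 groups), 4 held an array whose gap to the nearest other array exceeded Dixon's critical value for its range, when about 1 in 20 would by chance. Gstp1 was high in replicate 2 of M + HFD, at 12.49, and in replicate 2 of F + HFD, at 12.76, where the other arrays of these groups had at most 11.87 and 12.17. Gsto1 was high in replicate 3 of F + LFD on both of its probes, at 15.14 and 15.64. The same F + LFD array had one of the highest posterior Hox means, 8.55. Other arrays with such a mean did not have high Gsto1 on its brighter probe. Replicate 1 of M + HFD (8.59) had 15.01, the lowest of its group, and replicate 3 of F + HFD (8.57) had 14.96.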

How the results depend on the processing

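Of the 9 genes, 4 were called in males, 0 in intact females and 2 in ovariectomized females. The count in males was 0 with the posterior Hox covariate, 1 without replicates 1 and 2 of M + LFD, 3 by the methods' t-test (Gsta2 losing its call), 5 in 1 fit of all 24 arrays (Gsta3 gaining one) and 2 to 4 when single arrays were left out. In intact females it was 0 to 2 on leaving out single arrays, and 0 under the other alternatives. In ovariectomized females it was 1 after scaling to the 75th percentile, with no filter on dim probes, with the Hox covariate and by the methods' t-test, 3 in 1 fit of all 24 arrays (Gsta4 gaining a call) and 1 to 3 on leaving out single arrays. Nrf2 targets called lower in males numbered 6, and 1 with the Hox covariate, 0 without replicates 1 and 2 of M + LFD, 4 by the t-test and after scaling to the 75th percentile, 9 with all probes averaged, and 1 to 7 without single arrays.

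All genes called in males numbered 882, and 567 with normexp, 273 with the Hox covariate, 489 by the methods' t-test and 585 to 1510 without single arrays. In intact females, 264 became 80 with normexp, 627 with no filter, 108 with the filter over all 24 arrays, 413 with the Hox covariate, 125 by the t-test and 163 to 733 without single arrays. In ovariectomized females, 421 became 270 with normexp, 843 with no filter, 776 with the Hox covariate, 209 by the t-test, 251 in 1 fit of all 24 arrays and 218 to 708 without single arrays. The cause of these shifts was not tested. Scaling moved the median of all genes by less than 0.1 on the log2 scale.

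With the replicate number as a block, 587 genes were called in intact females instead of 264. In males and ovariectomized females the arrays were not taken as pairs, since not every correlation of same-numbered deviations was above 0.1. In ovariectomized females these were 0.33, -0.09, 0.32 and 0.25. The block gave 3 of the 9 genes in males, Nqo1 losing its call, and 3 in ovariectomized females, Gsta4 gaining one. No called gene among the 9 changed direction under any alternative run. Blocks, filters, the covariate and the t-test were not run for the differences of diet effects.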
